A study of Mus musculus with 4 samples.

Results

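Of the 18193 genes that the array annotation names from a probe set with 1 symbol, 115 encode enzymes of 4 families whose symbols begin with Cyp, Ugt, Gst or Sult and a family code, Cyp51 left out. The rule reads only the symbol, though these families were picked for description with earlier results of these data known. They comprise 72 Cyp, 11 Ugt, 19 Gst and 13 Sult genes, carried by 150 probe sets. Each gene was read from its brightest probe set, and the other probe sets are given alongside. Expression was measured in Paneth cells, the antimicrobial secretory cells of the small intestinal crypt base, cut from mouse tissue by laser capture. The groups were 2 samples from Atg16 hypomorph mice, in which the gene works at reduced level, and 2 from wildtype mice, all on one mixed C57BL/6 and 129ola strain background. The sources used here do not give the allele, the animals' age or treatment, or whether samples of a group came from separate animals or pools. The p-values below therefore rest on a spread between samples that may be no more than technical.

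Cytochrome P450 enzymes (Cyp) insert oxygen into drugs, toxins, fatty acids, sterols and vitamins. The products, and many endogenous compounds, are then joined to glucuronic acid by UDP-glucuronosyltransferases (Ugt), to glutathione by glutathione S-transferases (Gst) or to sulfate by sulfotransferases (Sult), which makes them easier to export. In the small intestine this system is best known from absorptive enterocytes on the villus, where it acts on what is taken up from the lumen. Cyp2e1, which oxidises ethanol, acetone and other small molecules, is also known from liver and fat.

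Median intensity over the 45101 probe sets of an array lay between 47.4 and 49.6. Arrays of a group ranked the probe sets alike (Spearman 0.968 for hypomorph and 0.972 for wildtype), and arrays of different groups nearly as much (0.957 to 0.969). These correlations run over probe sets within arrays, so their points are not replicates. Atg16l1 itself read 966 and 995 in hypomorph against 1335 and 1183 in wildtype, without overlap. The log2 difference of -0.35 (SE 0.105) did not pass the test (limma, adjusted p = 0.102), and the sources used here do not say where its probes lie relative to the altered part, so it checks the labels only weakly. Differences throughout are hypomorph minus wildtype in log2(intensity + 32), which understates changes of dim genes, and values after ± are SDs over the 2 arrays of a group, a number that limits the precision. A gene rose or fell where limma gave a Benjamini-Hochberg adjusted p below 0.05 over all 22519 probe sets tested. Signals of different probe sets do not rank the RNA amounts of different genes.

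Among the enzyme genes 5 passed the test. Cyp2e1, Cyp3a13 and Cyp4f14 rose in the hypomorph samples, and the glucuronosyltransferase gene Ugt2b35 and the sulfotransferase gene Sult1c2 fell. Only 50 of the 115 enzyme genes were bright enough to be tested, so 3 of 50 (6%) rose and 2 of 50 (4%) fell. Among all 11577 genes tested, 293 (2.53%) rose and 197 (1.7%) fell, 4.23% in all against 10% of the enzyme genes, so the enzymes' counts are few genes above the background. At an unadjusted p below 0.05, 9 of the 50 enzyme genes were higher and 5 lower, where 10% and 11.6% of all genes tested were. The groups did not overlap in 28 of the 50, 17 higher and 11 lower in hypomorph, where the shares among all genes tested were 23.4% higher and 30% lower. The median difference was 0.05 over the tested enzyme genes and -0.02 over all genes tested, and 43 of the 50 differed by less than 0.5.

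**Figure D1:**
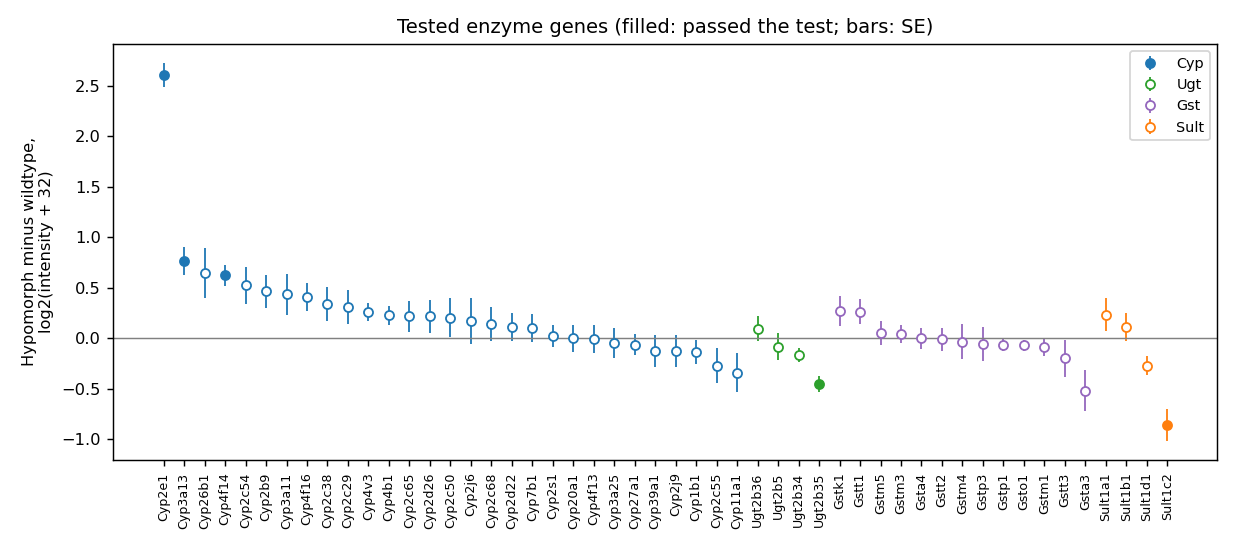
Differences between hypomorph and wildtype in log2(intensity + 32) for the 50 tested enzyme genes, by family and then by size, with bars for the SE and filled points for the 5 genes that passed the test. Cyp2e1 stands at 2.61, far from the next gene, Cyp3a13 at 0.76, while 12 of 13 Gst genes lie within 0.5 of 0.

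The promoters of the 5 genes that passed the test are shown because these genes carry the result and their letters can be compared. All 5 had an entry among the RefSeq promoter windows of build GRCm38.p6, as had 89 of the 115 enzyme genes. Each window runs 5′ to 3′ on the gene's strand from 250 bases before the annotated start to 50 bases after it. Capitals mark matches, on either strand, to 6 motifs: the xenobiotic response element core GCGTG bound by the aryl hydrocarbon receptor, the antioxidant response element TGACNNNGC, the HNF4 motif CAAAGTCCA, the HNF1 core GTTAAT, the nuclear receptor hexamer AGGTCA and the TATA box TATAAA. Cyp2e1 lies at chr7:140763569-140763868 on the plus strand, Cyp3a13 at chr5:137921570-137921869 on the minus strand, Cyp4f14 at chr17:32917307-32917606 on the minus strand (the first listed of its 4 windows), Ugt2b35 at chr5:87000610-87000909 on the plus strand and Sult1c2 at chr17:53845909-53846208 on the minus strand.
Cyp2e1: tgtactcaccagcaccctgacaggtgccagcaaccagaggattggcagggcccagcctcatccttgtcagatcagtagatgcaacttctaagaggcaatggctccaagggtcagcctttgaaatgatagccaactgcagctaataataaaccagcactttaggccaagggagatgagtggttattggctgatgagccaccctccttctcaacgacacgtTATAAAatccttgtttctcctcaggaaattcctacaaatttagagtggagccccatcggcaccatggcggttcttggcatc
Cyp3a13: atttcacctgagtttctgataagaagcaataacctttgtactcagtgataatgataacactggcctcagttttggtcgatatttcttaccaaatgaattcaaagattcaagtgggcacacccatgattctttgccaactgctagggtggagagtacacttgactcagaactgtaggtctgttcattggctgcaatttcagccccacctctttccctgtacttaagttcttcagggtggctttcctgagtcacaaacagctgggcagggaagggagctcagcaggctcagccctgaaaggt
Cyp4f14: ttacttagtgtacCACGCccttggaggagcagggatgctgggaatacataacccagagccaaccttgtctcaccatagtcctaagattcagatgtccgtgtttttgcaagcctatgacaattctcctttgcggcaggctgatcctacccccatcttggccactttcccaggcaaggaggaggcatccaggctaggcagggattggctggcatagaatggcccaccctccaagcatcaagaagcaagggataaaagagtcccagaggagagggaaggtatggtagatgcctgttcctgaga
Ugt2b35: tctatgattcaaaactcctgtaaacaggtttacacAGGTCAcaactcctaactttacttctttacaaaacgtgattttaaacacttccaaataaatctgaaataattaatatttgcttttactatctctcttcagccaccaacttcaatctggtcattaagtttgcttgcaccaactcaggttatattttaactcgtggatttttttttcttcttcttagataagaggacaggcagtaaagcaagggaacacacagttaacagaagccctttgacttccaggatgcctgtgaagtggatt
Sult1c2: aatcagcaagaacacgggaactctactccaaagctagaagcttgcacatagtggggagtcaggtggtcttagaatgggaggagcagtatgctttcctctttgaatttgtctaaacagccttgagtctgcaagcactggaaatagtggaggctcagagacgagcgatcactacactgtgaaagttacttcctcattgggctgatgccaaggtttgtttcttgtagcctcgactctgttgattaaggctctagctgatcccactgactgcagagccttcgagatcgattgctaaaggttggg

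Of the 3 genes that rose, Cyp2e1 had a TATA box beginning 31 bases before the start, Cyp4f14 had the xenobiotic response element core on its opposite strand, and Cyp3a13 had no match. Ugt2b35 had 1 nuclear receptor hexamer and Sult1c2 no match, so no motif was shared between genes that moved the same way. Over 27025 promoter windows of the same length, 1 a gene, the TATA box stood in 14.2%, the xenobiotic response element core in 32.5% and the nuclear receptor hexamer in 16%. The 44 tested enzyme genes with a window held them in 22.7%, 27.3% and 20.5%. The HNF4 motif stood in 3 of these 44 windows, against 0.477% of all, and in none of the 5 shown. The 27025 windows were not limited to genes tested here, so their shares do not set the enzyme genes beside other tested genes. For the HNF1 core the shares were 11.4% and 7.2%, and for the antioxidant response element 9.09% and 12.5%. A match is only a match of letters and does not show that a factor binds.

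Among Cyp1, Cyp2 and Cyp3 genes, which handle most drugs and foreign compounds, 2 of 18 tested genes rose and 0 fell (limma; at an unadjusted p below 0.05, 4 were higher and 0 lower). Cyp2e1 read 1915 and 2194 in hypomorph against 295 and 322 in wildtype. The groups lay far apart, and the means of 2054 ± 197 and 309 ± 19.05 differed by a factor of 6.65. Its log2 difference was 2.61 (SE 0.118, adjusted p = 2.7e-06 in limma). It is the only probe set of Cyp2e1 with 1 symbol on the array, and the gene lies on chromosome 7.

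Cyp3a13, a member of the Cyp3a subfamily known for broad drug oxidation, read 698 and 850 in hypomorph and 470 and 413 in wildtype. The groups did not overlap, with a factor of 1.75 between their means and a log2 difference of 0.76 (SE 0.138, adjusted p = 0.0157 in limma). On chromosome 5 it lies apart from the other Cyp3a genes, which sit together. Of these, Cyp3a11, the main hepatic drug oxidase of the subfamily, read 263 and 399 against 268 and 199, with overlapping groups and a difference of 0.44 that did not pass (adjusted p = 0.267 in limma). Cyp3a25 was level, at 293 and 294 against 338 and 273 (-0.05). The remaining 2 Cyp3a genes, Cyp3a16 and Cyp3a44, were too dim to test.

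The 11 Cyp2c genes, several of which oxidise arachidonic acid, gave 7 tested genes, of which 0 passed in limma and 1 was higher at an unadjusted p below 0.05. Cyp2c54 and Cyp2c29 were above the brightness limit only in the hypomorph group, the only 2 of the 50 tested enzyme genes above it in 1 group alone, so their direction was favoured by the limit. Cyp2c54 read 74.9 and 54.8 against 40.4 and 30.0 (0.52, adjusted p = 0.148 in limma), and Cyp2c65 was brighter, at 537 and 519 against 521 and 387 (difference 0.22). Cyp2c29 and Cyp2c38 were dim, at 61.0 and 56.4 against 44.2 and 38.2 and at 65.1 and 75.9 against 48.3 and 49.4, without overlap and short of the threshold. Cyp2c55 read 46.4 and 60.4 against 71.8 and 69.5 (-0.27). Most Cyp2c genes lie side by side on chromosome 19, and they are close in sequence, so their probes can read each other's RNA and the differences need not be separate.

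Cyp2b9 read 91.0 and 82.9 against 53.1 and 55.0, without overlap, but its difference of 0.47 did not pass (adjusted p = 0.148 in limma). Cyp2b10, the gene best known for induction through the receptor CAR, stayed below the brightness limit at 45.8 and 37.8 against 43.1 and 40.5. Cyp2s1, among the brightest Cyp probe sets, was level at 1135 and 1279 against 1258 and 1113, as was Cyp1b1, an oxidase of oestrogens and polycyclic hydrocarbons, at 734 and 774 against 902 and 764. Cyp2d26 read 116 and 127 against 94.2 and 106 (0.22), and Cyp2j9, of a subfamily that makes epoxides of arachidonic acid, 127.9 and 121.7 against 147 and 132 (-0.13), neither passing. Cyp1a1, the standard target of the aryl hydrocarbon receptor, lay between 25.9 and 41.8 on all 4 arrays and Cyp1a2 between 1.74 and 15.5, both untested.

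Cyp4 enzymes hydroxylate the end of fatty acids and of lipid mediators such as leukotrienes. Of 13 genes 5 were tested, 1 rose and 0 fell, and 4 were higher at an unadjusted p below 0.05 (limma), a threshold at which 10% of all genes tested were higher. Their median difference was 0.26. Cyp4f14 read 1079 and 1134 in hypomorph against 684 and 730 in wildtype. The groups did not overlap, the means differed by a factor of 1.57, and the difference was 0.62 (SE 0.107, adjusted p = 0.0125 in limma).

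Most Cyp4f genes lie near each other on chromosome 17, while Cyp4f18, too dim to test, lies on chromosome 8. Cyp4f16 read 846 and 816 against 540 and 704 (0.41, adjusted p = 0.135 in limma). Its other probe set, untested, gave -0.06. A dim probe set shared by Cyp4f16 and Cyp4f37 was lower, at 50.1 and 42.95 against 63.5 and 70.5 (-0.34, adjusted p = 0.29 in limma). Cyp4f13, next to Cyp4f14 in gene order, read 346 and 376 against 380 and 345, a difference of -0.005 with fully overlapping groups. Cyp4f15, between Cyp4f16 and Cyp4f14, was untested at 7.27 and 11.6 against 26.5 and 21.5. Outside this cluster, Cyp4v3 read 1877 and 1809 against 1612 and 1458 (0.26, adjusted p = 0.151 in limma), and its dimmer probe set gave 0.42. Cyp4b1 read 1395 and 1415 against 1244 and 1147 (0.23), without overlap and also short of the threshold (adjusted p = 0.217 in limma). The 3 Cyp4a genes, textbook targets of the receptor PPAR alpha in liver, were too dim to test, with Cyp4a14 at 11.9 and 26.9 against 5.21 and 13.6.

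Of 16 Cyp genes for steroids, sterols, bile acids, vitamins and unassigned substrates, 6 were tested and 0 passed (limma; 1 higher and 0 lower at an unadjusted p below 0.05). That 1 was Cyp26b1, which breaks down retinoic acid, at 503 and 291 against 291 and 187. The lower hypomorph array and the higher wildtype array had nearly the same value, and the difference of 0.65 had an SE of 0.249 (adjusted p = 0.184 in limma). Without hypomorph replicate 2, the lower of its group, it passed. Cyp27a1, the mitochondrial sterol hydroxylase, was level at 903 and 973 against 976 and 982 (-0.06). Cyp7b1, which hydroxylates oxysterols, read 435 and 442 against 440 and 375, and Cyp39a1, another oxysterol enzyme, 189 and 163 against 184 and 206, both with overlapping groups. Cyp11a1, which starts steroid synthesis by cleaving cholesterol and is known from intestinal epithelium, read 146 and 97.3 against 175 and 146.4 (-0.34, adjusted p = 0.354 in limma). Cyp7a1 and Cyp8b1, which direct bile acid synthesis in liver, were untested, with no array above 15.5.

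Glucuronosyltransferases gave 4 tested genes of 11, all of the Ugt2b subfamily. Ugt2b35 read 1836 and 1906 in hypomorph against 2631 and 2508 in wildtype. The groups were well apart, the hypomorph mean was 0.728 times the wildtype mean, and the difference was -0.45 (SE 0.081, adjusted p = 0.015 in limma). Its neighbours on chromosome 5 did not pass. Ugt2b34 read 3544 and 3702 against 4156 and 3975 (-0.17, adjusted p = 0.209 in limma), with -0.26 from its dimmer probe set. Ugt2b36, next to Ugt2b35, read 545 and 608 against 540 and 534 (0.10), and Ugt2b5 read 366 and 402 against 424 and 392 (-0.08). Ugt2b sequences are close, so how far a probe set reads only its named gene was not tested.

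The Ugt1a enzymes are not among these genes, since their probe sets carry the symbols of 8 Ugt1a genes that share their final exons. Of 3 such probe sets, the brightest read 5788 and 6401 against 5171 and 5020 (0.26, adjusted p = 0.0668 in limma). The next read 3012 and 3332 against 2378 and 2341, a rise of 0.42 (SE 0.08, adjusted p = 0.0207 in limma), and the dimmest read 57.5 and 75.8 against 92.8 and 86.2 (-0.31, not passed). The signals were therefore higher in hypomorph from the 2 bright probe sets, by a test in 1 of them, and not from the dim one. The Ugt1a genes lie on chromosome 1 close to Atg16l1, with 3 protein-coding genes between them in the RefSeq gene order, and whether this closeness bears on the difference was not tested.

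Of 19 glutathione S-transferase genes 13 were tested and 0 passed (limma; at an unadjusted p below 0.05, 0 were higher and 1 lower), and 12 of 13 differed by less than 0.5, with a median of -0.03. Gstp1 of the pi class read 6827 and 7380 against 7303 and 7558, and Gsto1 of the omega class 7261 and 7662 against 7815 and 7814. Neither passed. That probe set of Gsto1 is of a kind that can match several genes. A dimmer probe set of Gsto1, not of that kind, gave a larger difference, at 4767 and 5306 against 6005 and 5892 (-0.24, adjusted p = 0.0828 in limma). Which of them reads the gene better was not tested.

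In the mu class, Gstm1 read 1590 and 1738 against 1767 and 1766 and Gstm3 read 1381 and 1325 against 1328 and 1296. Both were read by probe sets of a kind that can match several genes, and the mu genes are close in sequence, so these values may be shared. Gsta4, which clears the lipid peroxidation product hydroxynonenal, was at 982 and 998 against 1038 and 945, a difference of 0.00 (SE 0.105).

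The member of the family with the smallest p was Gsta3, an alpha class enzyme, which was dim at 43.5 and 58.7 against 68.6 and 108 (-0.52, adjusted p = 0.187 in limma). Its other probe set gave -0.38, the same direction. Gstt1 of the theta class read 573 and 541 against 451 and 465 (0.27), and the mitochondrial and peroxisomal Gstk1 read 299 and 335 against 274 and 240 (0.27). In both genes the groups did not overlap, and neither passed. Gstt2 and Gstt3, beside Gstt1 on chromosome 10, read 608 and 639.8 against 654 and 604 and 92.3 and 87.1 against 90.2 and 127, with overlapping groups. Gstm4, Gstm5 and Gstp3 also overlapped, with differences from -0.06 to 0.05.

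Sulfotransferases gave 4 tested genes of 13, all of the Sult1 group, and the 7 genes of Sult2 to Sult6 were too dim. Sult1c2 read 125 and 133 in hypomorph against 282 and 237 in wildtype. The groups did not overlap, the hypomorph mean was 0.496 times the wildtype mean, and the difference was -0.86 (SE 0.16, adjusted p = 0.0187 in limma). Its chromosome 17 neighbour Sult1c1 was near the floor at 5.45 and 5.19 against 9.41 and 1.00.

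Sult1d1, which sulfates catecholamines, gave different sizes from its 2 probe sets. The brighter read 1603 and 1671 against 1849 and 2122, a difference of -0.27 that did not pass (adjusted p = 0.15 in limma). The dimmer read 501 and 493 against 827 and 932 and passed, at -0.78 (SE 0.119, adjusted p = 0.00634 in limma). Both had the hypomorph arrays below the wildtype arrays, and which of them reads the gene better was not tested. Over probe sets rather than genes, 3 of the 61 tested probe sets of these enzymes rose and 3 fell, against 2.04% and 1.67% of all tested probe sets. Sult1b1, the neighbour of Sult1d1 and a sulfotransferase of thyroid hormones, read 321 and 310 against 288 and 290 (0.11), and Sult1a1, which acts on phenols, 110 and 101 against 81.0 and 88.8 (0.24). Neither passed, although their groups did not overlap.

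**Figure D2:**
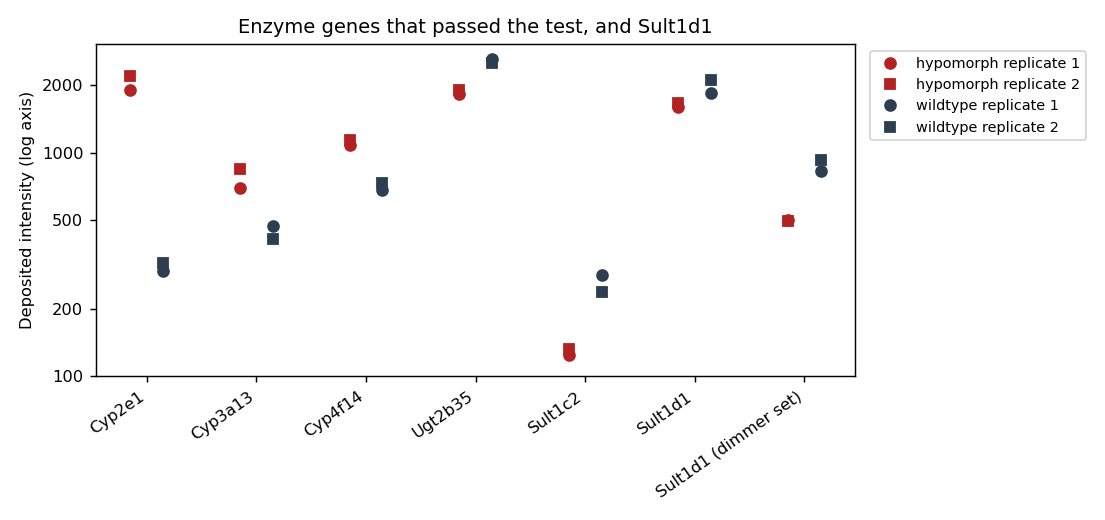
Deposited intensity, on a log axis, on each of the 4 arrays for the 5 enzyme genes that passed the test and for both probe sets of Sult1d1, hypomorph in red and wildtype in dark blue. The arrays of a group lie close together in all 7, and the gap for Cyp2e1, from 322 to 1915, is the widest.

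For 10 of the enzyme genes there was more than 1 tested probe set. Cyp2d22 disagreed in sign, at 427 and 444 against 434 and 370 on the brighter set (0.11) and 68.0 and 88.2 against 111 and 120 on the dimmer (-0.43), with neither passing. Cyp2j6 disagreed as well (0.17 and -0.28), and Cyp20a1 gave 0.002 and -0.10. The other 7 genes agreed in direction over all their tested probe sets.

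**Figure D3:**
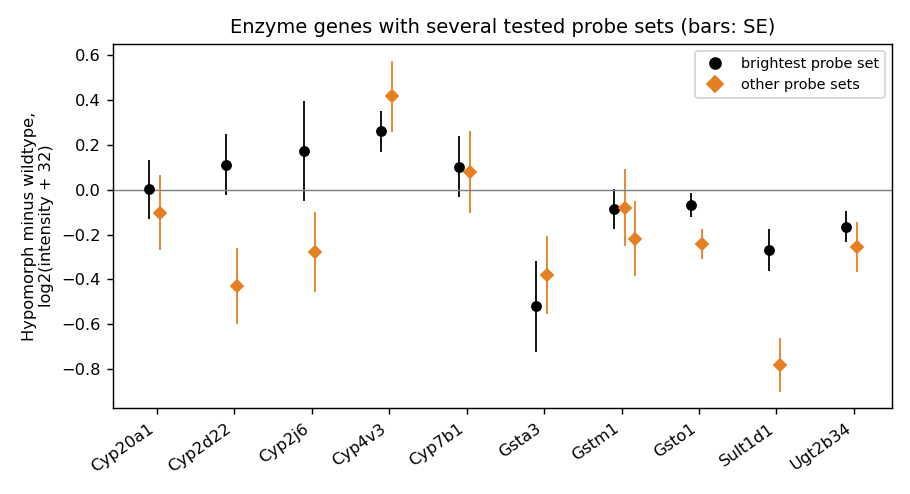
Difference between hypomorph and wildtype in log2(intensity + 32), with the SE as bars, for each tested probe set of the 10 enzyme genes that have several. The brightest probe sets are black circles and the others orange diamonds. Sult1d1 shows the widest gap among genes whose probe sets share a direction, and those of Cyp2d22, Cyp2j6 and Cyp20a1 lie on both sides of 0.

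The 65 enzyme genes too dim to test had mean intensities of at most 47.3. They include Cyp2a12, a liver enzyme, at 1.20 or less on every array, and all members of Cyp4a, Ugt3a and Sult2. Cyp2c23 stayed below the limit at 82.8 and 36.9 against 34.6 and 34.9, and only without hypomorph replicate 2, the array at 36.9, was it bright enough to be tested and then passed. With no brightness limit all 115 were tested, and 2 rose, Cyp2e1 and Cyp4f14, while 0 fell. The variance fit and the adjustment both ran over 45037 probe sets there, and their shares in the change were not tested. Cyp3a13, Sult1c2 and Ugt2b35 had adjusted p-values of 0.0747, 0.078 and 0.0612 in that fit (limma).

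The calls depended on the arrays to different degrees. Cyp2e1 and Cyp3a13 passed with each array left out in turn, Cyp2e1 with differences of at least 2.51. Without wildtype replicate 1 the calls of Cyp4f14, Ugt2b35 and Sult1c2 were lost (adjusted p = 0.0503, 0.0926 and 0.14 in limma), at differences of 0.58, -0.42 and -0.74. The dimmer probe set of Sult1d1 passed in each case.

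**Figure D4:**
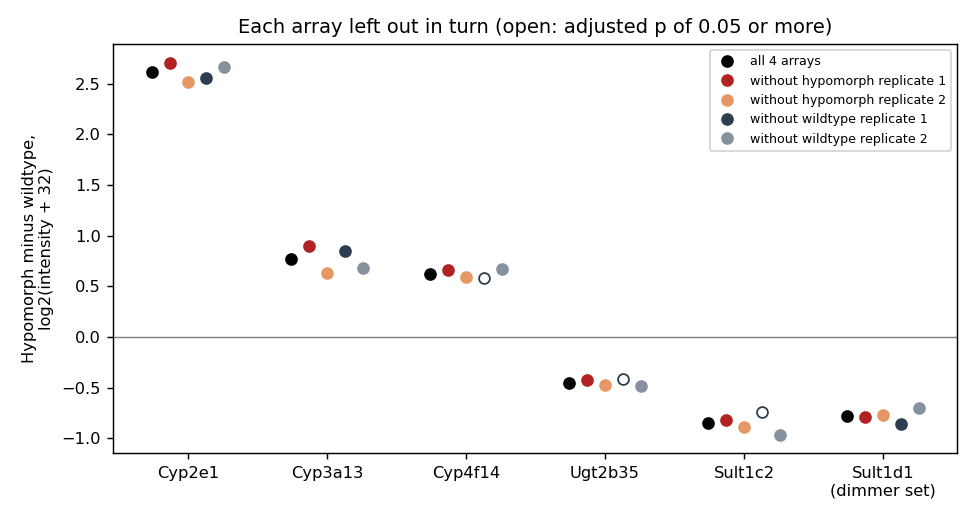
Difference between hypomorph and wildtype in log2(intensity + 32) with all 4 arrays and with each array left out, for the 5 genes that passed the test and the dimmer probe set of Sult1d1. Open points had an adjusted p of 0.05 or more. The 3 open points all belong to the fit without wildtype replicate 1, and no point crosses 0.

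The other genes of this metabolism were described from a list of 80 receptors, electron donors, cofactor suppliers, further enzymes and transporters, of which 68 were tested. Of these 4 rose and 2 fell (5.88% and 2.94%, beside 2.53% and 1.7% of all genes), with a median difference of 0.04. Slc51a and Slc51b, the subunits of the transporter that carries bile acids and steroid conjugates out of enterocytes, rose together. Slc51a read 525 and 567 against 288 and 288 (0.85, adjusted p = 0.00682 in limma), and Slc51b 618 and 595 against 407 and 349 (0.64, adjusted p = 0.0294 in limma). The 11 tested transporters had a median difference of -0.01, with 3 higher and 2 lower at an unadjusted p below 0.05 (limma). The lower ones were Slc10a2, at 42.9 and 76.8 against 105 and 94.4 (-0.54), and Abcb1a, at 1826 and 2062 against 2457 and 2490 (-0.35). Neither passed. Inmt, a methyltransferase of indoleamines, read 181 and 209 against 73.3 and 90.1 (1.00, adjusted p = 0.0116 in limma), and Nat8, which finishes glutathione conjugates as mercapturates, 527 and 521 against 334 and 290 (0.70, adjusted p = 0.0229 in limma). The alcohol dehydrogenase gene Adh1 fell, at 2187 and 2226 against 2784 and 2914 (-0.36, adjusted p = 0.0323 in limma), as did Akr1c14, a hydroxysteroid dehydrogenase, at 257 and 252 against 379 and 437 (-0.62, adjusted p = 0.0466 in limma). Of the 6, only Slc51a passed with each array left out.

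None of the 11 tested receptors and regulators passed in limma, 0 being higher and 3 lower at an unadjusted p below 0.05. Ahr, the aryl hydrocarbon receptor, read 883 and 854 against 1178 and 1113 (-0.39, adjusted p = 0.0696 in limma), without overlap. Nr1i2, the receptor PXR that drives Cyp3a genes, was dim and level at 59.7 and 52.4 against 57.0 and 67.1, and Nr1i3, the receptor CAR, was too dim to test. Nfe2l2, which governs many Gst genes, read 2167 and 2228 against 2640 and 2715 (-0.28, adjusted p = 0.0764 in limma). A dimmer probe set of Nfe2l2 passed, at 56.6 and 46.6 against 170 and 138 (-1.15, adjusted p = 0.006 in limma). The 5 electron donors and 9 cofactor genes tested also gave 0 calls (limma), with 1 donor gene higher and 3 cofactor genes lower at an unadjusted p below 0.05, among them Cyb5r3, a cytochrome b5 reductase, at 0.19, and Papss2, which makes the sulfate donor, at -0.20. These counts are of brightest probe sets, and dimmer ones of 2 cofactor genes fell. For Gsr, which regenerates glutathione, the dimmer set read 21.6 and 19.4 against 109 and 103 (-1.39, adjusted p = 0.00131 in limma), opposite in sign to its brightest set at 309 and 358 against 275 and 248 (0.32, adjusted p = 0.266 in limma). That dimmer set was above the brightness limit only in the wildtype group, so its direction was favoured by the limit. For Gclc, which starts glutathione synthesis, the dimmer set read 731 and 879 against 1157 and 1153 (-0.51, adjusted p = 0.0442 in limma) and the brightest gave -0.10 (adjusted p = 0.688 in limma).

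Markers of other cells moved with the groups, and in bulk samples more cells of a type and more RNA per cell cannot be told apart. Of 22 fat cell markers 12 were tested, 9 rose and 0 fell, and the summed signal of the 19 on the array was 33930 and 33980 in hypomorph against 11120 and 11350 in wildtype. Adipoq read 675 and 680 against 109 and 101, while Cidea, Lipe, Retn, Nnat, Aqp7, Mest and Slc2a4 stayed too dim to test. Cidec and Lep, among the 9 that rose, were above the brightness limit only in the hypomorph group, so their direction was favoured by the limit. Among tested fat cell markers that did not pass, Acvr1c was lower, at 505 and 665 against 677 and 741 (-0.27, adjusted p = 0.32 in limma). Lgals12 was level (0.05) and Pnpla2 higher (0.44). Of 25 enterocyte markers 18 were tested, 11 rose and 0 fell, and the sum was 47260 and 47760 against 35350 and 36110, with Fabp1 at 1005 and 892 against 162 and 144. Lct, among the 11, was also above the limit only in the hypomorph group. Mgam was lower, at 4095 and 3678 against 4277 and 4535 (-0.18, adjusted p = 0.209 in limma), and Fabp2 nearly level (0.08). These values stand beside the rises of Cyp2e1, Cyp3a13, Cyp4f14, Slc51a and Slc51b, and their part in them was not tested.

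Hepatocyte markers, of which 4 of 14 were tested, gave 1 rise and 1 fall, with a sum of 9060 and 9673 against 11020 and 10780. Most of that sum came from Cps1 alone, at 7762 and 8402 against 9281 and 9175. F2 rose, at 102 and 150 against 41.2 and 28.8, and Ttr fell, at 751 and 708 against 1356 and 1269. F2 was above the brightness limit only in the hypomorph group, so its direction was favoured by the limit. Alb read 49.3 and 31.2 against 20.3 and 26.9, untested. The Paneth cell list was nearly level in sum, at 65950 and 69350 against 66660 and 68180, and 2 of 9 tested genes rose. Mptx1 read 3841 and 3124 against 1954 and 1912 (0.83, adjusted p = 0.00151 in limma). Reg3g read 8023 and 8810 against 6983 and 7066 (0.26, adjusted p = 0.0453 in limma). At an unadjusted p below 0.05 in limma, 2 genes of the list were higher and 2 lower. Lyz1, a defining marker of the labelled cell type, was bright in both groups, at 14561 and 15097 against 15481 and 16021. Sox9, on the same list, was dim at 57.5 and 68.1 against 80.7 and 83.5. Among fibroblast markers 4 of 10 tested rose, and among macrophage and T cell markers 2 of 8. Goblet, smooth muscle and endothelial lists had 0 calls in limma, with 1, 0 and 2 genes higher and 3, 1 and 0 lower at an unadjusted p below 0.05. All these counts are of brightest probe sets. For the goblet cell marker Zg16 the brightest set gave 0.09, while its dimmer sets passed as higher, at 0.39 and 0.72 (adjusted p = 0.0133 and 0.00661 in limma).

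**Figure D5:**
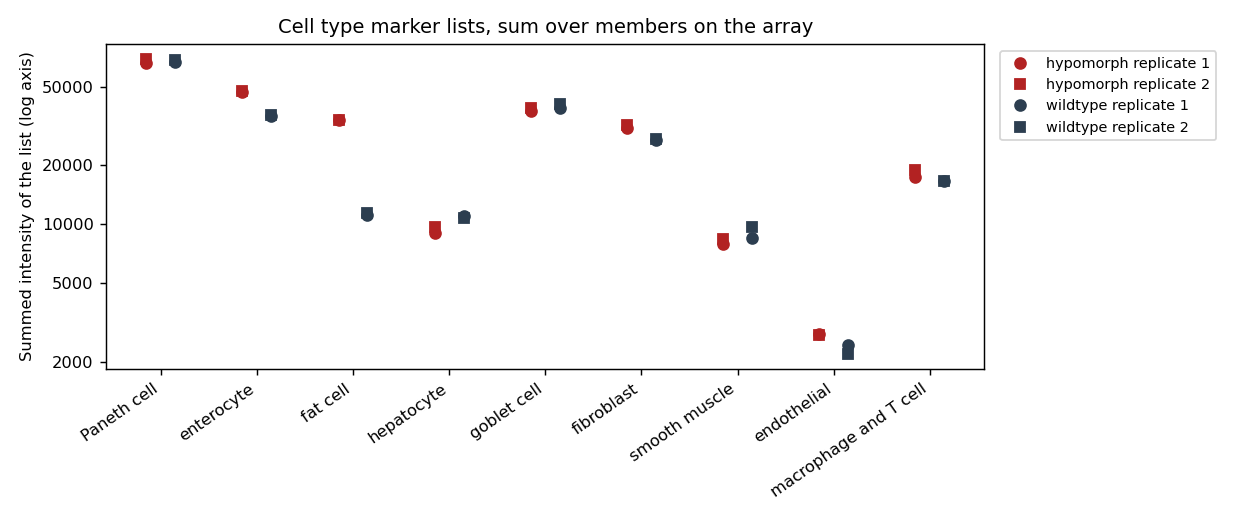
Summed deposited intensity, on a log axis, of the marker genes of 9 cell types on each array, hypomorph in red and wildtype in dark blue. The fat cell sums are 33930 and 33980 in hypomorph and 11120 and 11350 in wildtype, the enterocyte sums are also apart, and those of the Paneth cell list lie together.

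The groups also differed in genes tied to sex. Xist, transcribed from the inactive X chromosome of females, read 4414 and 4510 in hypomorph and 18.0 and 25.6 in wildtype, while the Y-linked Eif2s3y read 1473 and 1465 against 1771 and 1866 and Kdm5d 232 and 237 against 372 and 405. Xist and Y-linked RNA were thus both present in the hypomorph samples, and sex and genotype cannot be told apart. In mouse liver several of these enzymes are known to differ by sex. Of those higher in females there, Cyp2b9 is given above and Cyp3a44 read 51.1 and 44.8 against 22.4 and 30.2, untested. Cyp39a1, another of these and also given above, had overlapping groups and a difference of -0.13. Of those higher in males, Cyp4a12a and Cyp2d9 were near the floor, at no more than 8.30 and 26.3. The brighter Cyp7b1 and Gstp1 had overlapping groups, with differences of 0.10 and -0.07. These genes are examples, and not every enzyme with a known sex difference was followed.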

How the data were processed

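The authors deposited 1 linear intensity per probe set and array for 4 arrays of laser-captured Paneth cells. RNA was extracted with PicoPure and amplified and biotin-labelled with RiboAmp Plus, per the labels' protocols. How the values were background-corrected, summarised and scaled is not stated in the sources used here. The arrays' trimmed means (2% off each end) lay between 357 and 365, so nothing was normalised again.

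Gene names came from GEO's platform annotation. Of 45101 probe sets, 64 were controls, 34945 had 1 symbol, 932 several (9 of them with a name of these families) and 9160 none, and those with several named no gene. Testing was limited to the brighter probe sets, at or above 6.32, the median of their mean log2 values. A gene bright in 1 group can enter through that group. limma 3.58.1 in R 4.3.3 (lmFit, eBayes with trend) was fitted to log2(intensity + 32) with the group as the only term, on 2 residual and 7.81 prior degrees of freedom, two-sided, with Benjamini-Hochberg adjustment. Members and gene lists were chosen with earlier results of these data known. Named by rule were Atg16l1, enzyme genes that passed, the 4 brightest and the 3 smallest p-values not called per family, and called partner genes or the smallest p per partner subgroup. All other genes were named after their values were seen. No genome build is given for the arrays, so the RefSeq table (GRCm38.p6) served for names, gene order and promoter windows only.

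Alternatives were other scalings, added constants, brightness limits and variance models, the replicate number as a block, gene means, and each array left out. The procedure was tested on simulated data whose spread was drawn from the variance model fitted here. It recovered 8.96% of log2 changes of 0.5, 79.1% of changes of 1 and 100% of changes of 2, so most small changes would not pass.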

Additional observations from a re-analysis of the deposited data

Results flagged for a closer look

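One probe set outside the genes described stood out, because it carries 8 symbols and so belongs to no single gene. This probe set of the Ugt1a genes was 0.42 higher in hypomorph on the log2(intensity + 32) scale, above the level in both wildtype arrays. A brighter Ugt1a probe set gave 0.26 (adjusted p = 0.0668 in limma) and a dimmer one -0.31, so the 3 do not share a direction.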

How the results depend on the processing

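The enzyme genes gave 3 rises and 2 falls, all genes tested 293 and 197, and the partner genes 4 and 2. With no limit on dim probe sets the enzyme falls numbered 0, the counts over all genes 117 and 60, and the partner counts 1 and 0. With a higher brightness limit (the top quartile) the enzyme falls numbered 1, since Sult1c2 was left out. Without an intensity trend the enzyme counts were 1 and 1, those of all genes 120 and 53, and those of the partners 2 and 0. The partner falls numbered 1 with quantile normalisation, 1 with median centring and 4 with gene means. For the other changes the cause was not tested.

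With each array left out, enzyme rises ranged from 2 to 5 and falls from 0 to 2, all genes from 189 to 381 rises and 86 to 478 falls, and partner rises from 3 to 6 and falls from 0 to 3. The lone array of a group is then assumed to vary like the other group. The replicate block gave 7 rises and 4 falls among the enzymes, 853 and 884 over all genes, and 10 and 11 among partners. The labels do not say that the numbers pair samples, and deviations of same-numbered arrays correlated at 0.264 across probe sets.

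Cyp2e1 passed in all 14 alternatives (difference 2.32 to 2.73), Cyp3a13 and Cyp4f14 in 12 of 14, Ugt2b35 in 11 of 14 and Sult1c2 in 11 of the 13 that tested it. The dimmer Sult1d1 probe set, followed after the data were seen, passed in 13 of 13. Among the named genes 4 values changed sign, all of genes that did not pass: Gstm3 at -0.133 and Papss2 at 0.009 with gene means, and Cyp2s1 at -0.058 without hypomorph replicate 2 and at -0.06 without wildtype replicate 2, in a range of -0.06 to 0.112 over the arrays left out. With 2 arrays a group, small differences are beyond reach, and dim genes near the floor have no measured order.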
